A study of Mus musculus with 4 samples.

Results

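Collagen genes were examined in the hearts of mice in which the T-box transcription factor Tbx20 had been overexpressed in cardiomyocytes. The members are all genes of the series-wide expression table whose symbol has the form of a collagen chain (Col, a number, the letter a, a number), 44 of 23444 symbols. They were split by the kind of assembly the chain forms into 11 fibrillar collagens, 6 basement membrane collagens and 27 others. The control hearts were alphaMHCMerCreMer+/-, and the overexpressing hearts, named Tbx20_OE here, were alphaMHCMerCreMer+/-;CAGCATTbx20. Both groups therefore carried the Cre recombinase driven by the cardiomyocyte promoter of alpha myosin heavy chain, and Tbx20_OE alone carried the inducible Tbx20 transgene. The labels give induction at 8 weeks of age for both groups, and the hearts were taken 4 weeks later, at 12 weeks of age. Each group held 2 libraries of total RNA from a heart each. The question put to the data is whether the collagen transcripts of hearts with 4 weeks of transgene induction differ from those of control hearts.

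Collagens are secreted proteins whose chains wind in threes into a triple helix. Fibrillar collagens form the interstitial fibres that give the myocardium its tensile strength and are made in the heart mainly by fibroblasts. Type IV collagens form the sheet-like network of the basement membrane that surrounds cardiomyocytes and underlies the endothelium. The remaining collagens form microfibrils and short-chain networks or decorate fibrils and basement membranes. Cardiomyocytes, in which the transgene was induced, are not regarded as the main source of fibrillar collagen, and values from whole-heart RNA do not show which cells made a transcript. Fewer cells of a type and less RNA per cell cannot be told apart in such samples.

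Printed first are sequences at the start sites of Col1a2, Col3a1, Col8a1 and the pair Col4a1 and Col4a2, whose values carry the account below. They come from RefSeq on GRCm38.p6 and run 5′ to 3′, in lower case with motif matches in capitals. Of the 44 collagens, 35 had a promoter window in the RefSeq table used, and 14 of the 17 expressed well enough to be tested. The 250 bases before the start site were searched on both strands for the letters CCAAT, for the GC box GGGCGG and for the TATA box letters TATAAA. For Col1a2, Col3a1 and Col8a1 only the 150 bases nearest the start site are printed. Col1a2 also held GGGCGG within the 250 bases searched, but not within those printed. In the sequences printed no match overlaps another. Col1a2 and Col3a1 encode chains of interstitial fibrils and were both lowest in control replicate 1 and highest in control replicate 2. Col8a1, a short-chain collagen, had the largest fold change of the 17 tested collagens. Col4a1 and Col4a2 are transcribed in opposite directions from neighbouring start sites, and the sequence shown lies around both.

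Col1a2, chr6:4505468-4505617, plus strand, the bases before the start site, with CCAAT in capitals: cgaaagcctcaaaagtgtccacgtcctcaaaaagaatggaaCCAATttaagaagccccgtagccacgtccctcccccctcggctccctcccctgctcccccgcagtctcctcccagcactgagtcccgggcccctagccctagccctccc
Col3a1, chr1:45311388-45311537, plus strand, the bases before the start site, with TATAAA in capitals: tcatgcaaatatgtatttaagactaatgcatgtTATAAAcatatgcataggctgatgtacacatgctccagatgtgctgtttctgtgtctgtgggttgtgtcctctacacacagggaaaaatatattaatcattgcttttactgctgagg
Col8a1, chr16:57754738-57754887, minus strand, the bases before the start site, with GGGCGG read from the other strand in capitals: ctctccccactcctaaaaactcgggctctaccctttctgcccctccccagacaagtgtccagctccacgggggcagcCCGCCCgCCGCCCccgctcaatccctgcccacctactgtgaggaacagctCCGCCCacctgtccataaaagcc
Col4a1 and Col4a2, chr8:11312777-11312854, plus strand, with GGGCGG in capitals: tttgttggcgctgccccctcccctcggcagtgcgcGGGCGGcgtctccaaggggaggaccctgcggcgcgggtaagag

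Counting the base before the start site as -1, the CCAAT of Col1a2 begins at -109 and the TATAAA of Col3a1 at -117. The matches of Col8a1 begin at -73, -66 and -23. The RefSeq start sites of Col4a2, at 11312805, and Col4a1, at 11312826, overlap head to head by 22 bases on chromosome 8. The GGGCGG marked between them lies after the start site of each gene, outside the stretch searched and counted. Within the 250 bases searched, Col4a1 held CCAAT and Col4a2 held CCAAT and GGGCGG, all outside the bases printed. Over all 32851 promoter windows of that table, CCAAT occurred in 33.8%, GGGCGG in 32.7% and TATAAA in 12.4%. Of the 38 collagen windows, some genes having more than 1, 34.2% held CCAAT, 57.9% GGGCGG and 13.2% TATAAA. A match describes the letters in the window and is not a binding site.

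Expression was given as FPKM (fragments per kilobase of transcript, scaled by the authors to the mapped fragments of each library), which already corrects for transcript length, so that levels can be set side by side between genes. The number of reads behind a value is unknown, and the FPKM values of a library summed to between 453204 and 513342. Tbx20 itself measured 6.99 and 4.58 FPKM in control replicates 1 and 2, and 11.0 and 16.4 FPKM in Tbx20_OE replicates 1 and 2, so both overexpressing libraries lay above both controls, as labelled. Its log2 fold change of FPKM + 1 was 1.11 with an SE of 0.30, which did not pass the test used below (limma, adjusted p = 0.848). Of the libraries, control replicate 2 was unlike the rest. Its 6 atrial marker genes summed to 3756 FPKM against 141.5 to 252.3 FPKM in the other 3 libraries, and its 5 markers of epicardium and mesothelium to 28.7 FPKM against 2.11 to 2.34 FPKM. All 11 of these markers were highest in that library. The share of atrial or surface tissue in each heart sample was not given, and its part in the collagen values was not tested. The library medians of log2(FPKM + 1) were 0.16 higher in Tbx20_OE than in control over all genes tested, and fold changes are to be read against that shift.

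Of the 44 collagens, 17 had a mean of at least 1 FPKM over the 4 libraries and entered the test, namely 6 fibrillar, 3 basement membrane and 8 other collagens. The other 27 lay below, with means from 0 to 0.559 FPKM. The members nearest the limit were Col11a2, Col6a6 and Col27a1 below it, at 0.559, 0.513 and 0.431 FPKM, and Col5a3, Col14a1 and Col18a1 above it, at 1.30, 1.56 and 1.57 FPKM. There was thus a gap between measured and near-silent collagens rather than a continuum at the limit. Col9a1, a cartilage collagen, was listed at 0 in all libraries, and 9 collagens including it were listed at 0 in at least 1 library. Of the collagens known from cartilage, Col2a1, Col10a1 and Col11a1 did not exceed 0.0258 FPKM in any library, Col9a2 and Col9a3 reached 0.0905 and 0.0997 FPKM in control replicate 2, and Col11a2 reached 1.32 FPKM there.

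The 5 most abundant collagens, Col3a1, Col4a1, Col1a2, Col4a2 and Col1a1, held 66.3% and 70.6% of the summed collagen FPKM in the controls and 65.5% and 66.8% in Tbx20_OE. The collagen sum was 144.3 and 217.4 FPKM in control replicates 1 and 2, and 181.9 and 205.3 FPKM in Tbx20_OE replicates 1 and 2. Both overexpressing sums lay between the controls. The control mean was 181 ± 51.7 FPKM and the Tbx20_OE mean 194 ± 16.6 FPKM (SD, n = 2 each), a log2 difference of 0.13 with an SE of 0.31. Without control replicate 1 the difference was -0.17, and without control replicate 2 it was 0.42, so its direction rested on which control was kept.

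**Figure D1:**
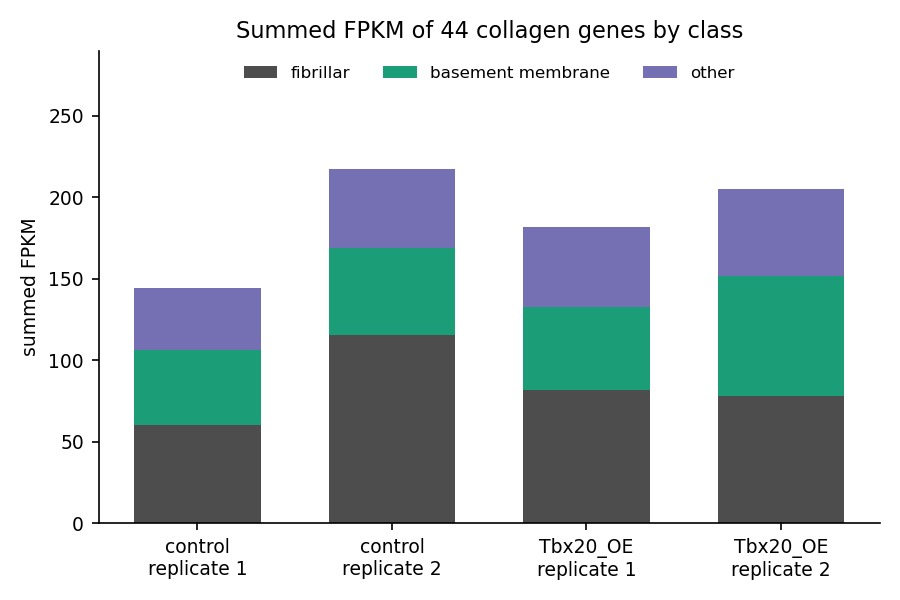
Summed FPKM of the 44 collagen genes in each of the 4 libraries (bars, linear axis from 0), divided into fibrillar, basement membrane and other collagens. The fibrillar part is 60.2 FPKM in control replicate 1 and 115.8 FPKM in control replicate 2, with the Tbx20_OE libraries between them, and the basement membrane part is highest in Tbx20_OE replicate 2 at 73.6 FPKM.

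No collagen passed the limma test across all genes (Benjamini-Hochberg adjusted p from 0.848 to 0.996 for the 17 collagens), in a table in which 0.019% of the 10513 genes tested were called. Nor did Tbx20, the induced gene, pass it (limma, adjusted p = 0.848). No collagen had an unadjusted p under 0.05 either, against 1.52% of all genes. Of the 17, 12 had a higher and 5 a lower mean log2 value in Tbx20_OE, beside 71.1% of all genes that had a higher one. With each library centred on its median, 8 of the 17 had a higher mean, as did 5063 of the 10513 genes. The median log2 fold change of FPKM + 1 was 0.15 over the 17 collagens and 0.15 over all genes tested. With values corrected for GC content these medians were 0.28, with 15 of the 17 collagens higher, and 0.15. On this scale the change of low genes is understated. Both Tbx20_OE libraries lay above both controls for 5 of the 17 collagens, against 28.1% of all genes, and below both for none, against 4.77%. These 5 were Col4a1, Col4a5, Col6a2, Col15a1 and Col8a1, and none of them is fibrillar. With each library centred on its median, Col8a1 alone kept both Tbx20_OE libraries above both controls, where 10.3% of all genes did so, and with the quantile-normalized values Col4a5 and Col8a1 did, where 12.1% of all genes did so.

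**Figure D2:**
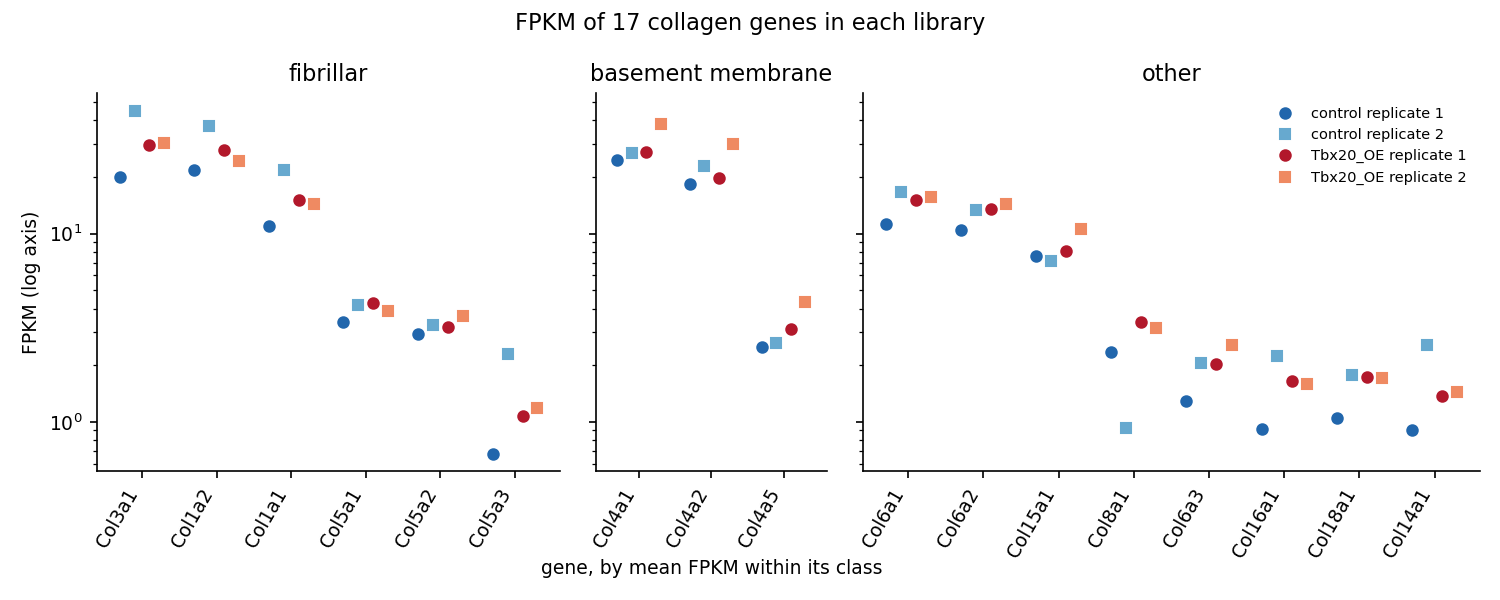
FPKM (log axis) of the 17 tested collagen genes in each library, grouped by class and ordered by mean, with circles for replicate 1, squares for replicate 2, blue for control and red for Tbx20_OE. Both red points lie between the blue ones for Col3a1, Col1a2, Col1a1 and Col5a3, and also for Col6a1, Col14a1, Col16a1 and Col18a1. The red points of Col4a1, Col4a5, Col6a2, Col15a1 and Col8a1 lie above both blue points.

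None of the 6 tested fibrillar collagens had both Tbx20_OE libraries beyond both controls on the deposited values, and the widest differences of the abundant ones lay between the control hearts. Col3a1, the chain of type III collagen of compliant fibres, was the most abundant collagen, at 19.9 and 45.0 FPKM in the controls and 29.5 and 30.3 FPKM in Tbx20_OE. Col1a2, a chain of type I collagen, the main fibre of the stiff matrix, measured 21.8 and 37.2 FPKM in the controls and 27.7 and 24.3 FPKM in Tbx20_OE. Its partner chain Col1a1 measured 11.0 and 21.8 FPKM in the controls and 15.0 and 14.4 FPKM in Tbx20_OE. In all 3 genes control replicate 1 was lowest, control replicate 2 was highest and both Tbx20_OE libraries fell between. The log2 fold changes were -0.01 for Col3a1 with an SE of 0.41, -0.13 for Col1a2 with an SE of 0.32 and -0.07 for Col1a1 with an SE of 0.35. Col5a3, a less abundant chain of type V collagen, which governs fibril assembly, had the same order, with 0.677 and 2.28 FPKM in the controls and 1.08 and 1.18 FPKM in Tbx20_OE.

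The more abundant type V chains varied less. Col5a1 measured 3.41 and 4.18 FPKM in the controls and 4.29 and 3.86 FPKM in Tbx20_OE, which gave a log2 fold change of 0.09 with an SE of 0.20 that was -0.08 with median centring and -0.07 with the quantile-normalized values. Col5a2, the chain that assembles with it, measured 2.92 and 3.25 FPKM in the controls and 3.20 and 3.64 FPKM in Tbx20_OE, which gave a log2 fold change of 0.11 with an SE of 0.19 that turned to -0.05 with centring and -0.03 with the quantile-normalized values. The groups of both genes overlapped. The other 5 fibrillar collagens were not tested. Col11a2 was the highest of them, at 0.238 and 1.32 FPKM in the controls and 0.548 and 0.137 FPKM in Tbx20_OE, and was highest in control replicate 2, as was Col27a1.

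Over the 6 tested fibrillar collagens the median log2 fold change was -0.04, against 0.15 over all genes, with 2 higher and 4 lower means, none of 6 higher with median centring and 5 of 6 higher with values corrected for GC content. Without control replicate 1 this median was -0.52 with 1 of 6 genes higher, and without control replicate 2 it was 0.29 with 6 of 6 higher. For Col3a1 the corresponding log2 fold changes were -0.57 and 0.56, and for Col1a1 they were -0.54 and 0.39. A direction for the fibrillar class could therefore not be given from these 4 hearts. The summed fibrillar FPKM was 60.2 and 115.8 in the controls and 81.8 and 78.2 in Tbx20_OE, a log2 difference of -0.06 with an SE of 0.47. It was -0.53 without control replicate 1 and 0.41 without control replicate 2.

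The ratios between the type I and type III chains spanned a narrower range than the levels of these genes. The ratio of Col1a1 to Col3a1, a measure of stiff against compliant fibre transcripts, was 0.549 and 0.484 in the controls and 0.509 and 0.475 in Tbx20_OE. The log2 difference was -0.07 with an SE of 0.10 (two-sided exact permutation test, p = 0.667, where the smallest p of 2 against 2 libraries is 0.333), and 0.02 without control replicate 1. The ratio of Col1a1 to Col1a2 was 0.503 and 0.585 in the controls and 0.542 and 0.593 in Tbx20_OE. The ratio of Col5a1 to Col5a2 lay between 1.06 and 1.34 in all 4 libraries, a range as wide as that of Col5a1 itself. In all 3 ratios the groups overlapped.

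The basement membrane collagens had higher means in Tbx20_OE for all 3 tested members, with the highest value of each in Tbx20_OE replicate 2. Col4a1, on chromosome 8 from 11198423 to 11312826 in the files' mm10 coordinates, measured 24.6 and 26.7 FPKM in the controls and 27.1 and 38.3 FPKM in Tbx20_OE. Its neighbour Col4a2, from 11312829 to 11449287, measured 18.4 and 22.9 FPKM in the controls and 19.8 and 29.9 FPKM in Tbx20_OE. These chains form the common type IV network, and the sequence around their start sites is printed above. The groups did not overlap for Col4a1 but did for Col4a2. Tbx20_OE replicate 1 lay close above control replicate 2 for Col4a1 and below it for Col4a2.

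The log2 fold changes were 0.32 for Col4a1 with an SE of 0.26 and 0.24 for Col4a2 with an SE of 0.29. Without Tbx20_OE replicate 2 they were 0.08 for Col4a1 and -0.05 for Col4a2, and without Tbx20_OE replicate 1 they were 0.56 and 0.52. The size of both therefore rested on 1 overexpressing heart. The ratio of Col4a1 to Col4a2 was 1.34 and 1.17 in the controls and 1.37 and 1.28 in Tbx20_OE, with overlapping groups. In the files' coordinates 2 bases lie between these genes, and without strand, reads at their shared start cannot be told apart.

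Col4a5, an X-linked chain of the basement membrane network best known from the kidney filter, measured 2.50 and 2.61 FPKM in the controls and 3.11 and 4.33 FPKM in Tbx20_OE. Both overexpressing libraries lay above both controls, and the log2 fold change of 0.40 with an SE of 0.22 (limma adjusted p = 0.848) was the second highest among the 17 collagens. It ranged from 0.21 without Tbx20_OE replicate 2 to 0.58 without Tbx20_OE replicate 1. The ratio of Col4a5 to Col4a1 was 0.101 and 0.0978 in the controls and 0.115 and 0.113 in Tbx20_OE, a log2 difference of 0.19 with an SE of 0.03. This was the narrowest spread of the ratios computed, and at 2 against 2 libraries its exact permutation p of 0.333 is the smallest the design allows.

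The remaining type IV chains were too low to be tested. Col4a3 was listed at 0.222 and 0.191 FPKM in the controls and 0.296 and 0.291 FPKM in Tbx20_OE. Col4a4, which is transcribed head to head with it 71 bases away on chromosome 1 and forms the same network with Col4a5, was listed at 0.333 and 0.217 FPKM in the controls and 0.517 and 0.532 FPKM in Tbx20_OE. Both were higher in both overexpressing libraries, at levels far below Col4a1. Col4a6, separated from Col4a5 by 1342 bases on chromosome X, was highest in control replicate 2 at 0.315 FPKM and lay between 0.202 and 0.217 FPKM in the others.

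Over the 3 tested basement membrane collagens the median log2 fold change was 0.32, against 0.15 over all genes. The sum over all 6 basement membrane members was 46.3 and 52.9 FPKM in the controls and 51.1 and 73.6 FPKM in Tbx20_OE, means of 49.6 ± 4.70 and 62.3 ± 15.9 FPKM (SD, n = 2 each). The log2 difference of the sums was 0.31 with an SE of 0.28, and it was 0.05 without Tbx20_OE replicate 2. It was 0.15 with median centring and 0.13 with the quantile-normalized values. Basement membrane transcripts made up 32.1% and 24.3% of the collagen sum in the controls and 28.1% and 35.8% in Tbx20_OE. Endothelial markers, 6 genes, summed to 98.1 and 67.1 FPKM in the controls and 107.3 and 91.7 FPKM in Tbx20_OE. The part of these markers in the type IV values was not tested.

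**Figure D3:**
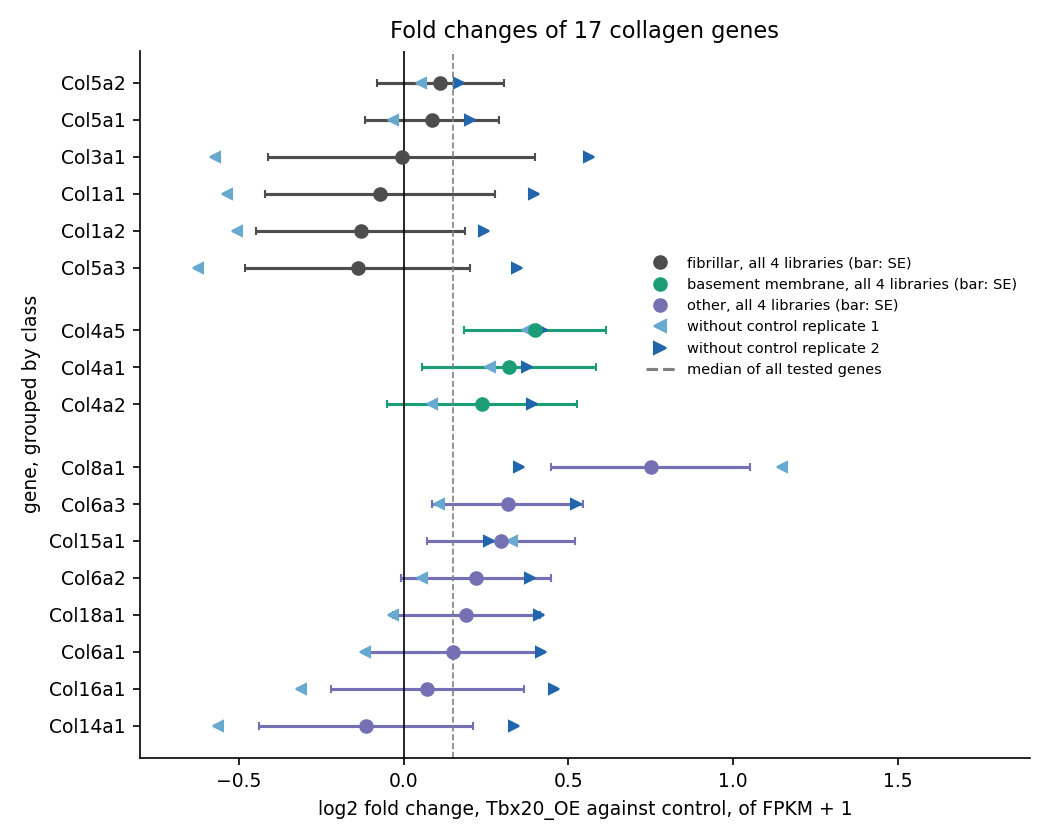
Log2 fold change of FPKM + 1 between Tbx20_OE and control for the 17 tested collagens, grouped by class, with bars for the SE from limma and triangles for the same fit without 1 control library. The triangles of Col3a1, Col1a1, Col1a2, Col5a1, Col5a3, Col14a1, Col16a1, Col6a1 and Col18a1 lie on opposite sides of 0. Those of the 3 basement membrane collagens stay above 0, as do those of Col5a2, Col6a2, Col6a3, Col8a1 and Col15a1. The dashed line marks the median of all genes tested, 0.15.

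Among the other collagens, Col6a1 and Col6a2, chains of type VI, which forms beaded microfibrils around cells, were the most abundant. Col6a1 measured 11.2 and 16.7 FPKM in the controls and 15.1 and 15.6 FPKM in Tbx20_OE, so both overexpressing libraries lay between the controls. Col6a2, its partner, measured 10.5 and 13.4 FPKM in the controls and 13.5 and 14.4 FPKM in Tbx20_OE, with no overlap but with a gap much narrower than that between the controls. Col6a3, the chain that completes the type VI trimer, measured 1.29 and 2.05 FPKM in the controls and 2.04 and 2.56 FPKM in Tbx20_OE. Control replicate 1 was lowest for all 3. The ratio of Col6a3 to Col6a1 was 0.115 and 0.123 in the controls and 0.135 and 0.164 in Tbx20_OE, a log2 difference of 0.33 with an SE of 0.15 (exact permutation p = 0.333, two-sided). Col6a1 had a log2 fold change of 0.15 that turned to -0.01 with median centring, to -0.01 with the quantile-normalized values and to -0.12 without control replicate 1.

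Col8a1 stood out among all collagens. It encodes a chain of type VIII collagen, a short-chain collagen that forms networks beneath endothelia and in vessel walls, and lies on chromosome 16 from 57624256 to 57754737. It measured 2.35 and 0.925 FPKM in the controls and 3.40 and 3.14 FPKM in Tbx20_OE. Both overexpressing libraries lay above both controls under deposited, centred, quantile-normalized and GC-corrected values alike. The log2 fold change was 0.75 with an SE of 0.30, a 1.68-fold difference on the FPKM + 1 scale (limma, unadjusted p = 0.0510, adjusted p = 0.848). It is the tested collagen with the lowest unadjusted p. Without control replicate 1 the change was 1.15 and passed the test (adjusted p = 0.0220), as did 13.6% of all genes in that fit. Without control replicate 2 it was 0.35. Col8a1 was lowest in control replicate 2, the library with high atrial and epicardial markers, as were 54.3% of all genes. In contrast 15 of the 17 collagens were lowest in control replicate 1, as were 22.9% of all genes.

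Smooth muscle and pericyte markers, 7 genes, summed to 96.3 and 82.9 FPKM in the controls and 151.7 and 136.9 FPKM in Tbx20_OE. Their median log2 fold change was 0.59, beside 0.15 over all genes. The mean was higher in Tbx20_OE for 6 of the 7, as for 71.1% of all genes. Rgs5, at 38.7 and 8.87 FPKM in control replicates 1 and 2, was the only marker of this list lower in control replicate 2 than in control replicate 1. The part of these markers in the Col8a1 result was not tested. The related chain Col8a2 was listed at 0.0484 and 0.0509 FPKM in the controls and 0.146 and 0.0756 FPKM in Tbx20_OE, below the level at which a change was tested.

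The collagens of the multiplexin family, whose carboxy-terminal fragments include endostatin and which lie in basement membrane zones, differed from each other. Col15a1 measured 7.57 and 7.17 FPKM in the controls and 8.09 and 10.6 FPKM in Tbx20_OE, which gave a log2 fold change of 0.29 with an SE of 0.23, and the groups did not overlap. Like Col4a1, Col4a2 and Col4a5, it was highest in Tbx20_OE replicate 2. Col18a1 measured 1.05 and 1.78 FPKM in the controls and 1.73 and 1.72 FPKM in Tbx20_OE, with only control replicate 1 apart from the rest. The ratio of Col15a1 to Col18a1 was 7.22 and 4.02 in the controls and 4.67 and 6.17 in Tbx20_OE.

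The fibril-associated collagens that were tested were, like Col3a1, lowest in control replicate 1 and highest in control replicate 2. Col14a1, found on the surface of collagen fibrils, measured 0.903 and 2.55 FPKM in the controls and 1.37 and 1.43 FPKM in Tbx20_OE. Col16a1 measured 0.911 and 2.25 FPKM in the controls and 1.65 and 1.59 FPKM in Tbx20_OE. In both genes the Tbx20_OE libraries lay close to each other and between the controls. The log2 fold change of Col14a1 was -0.12 with an SE of 0.32, with 0.33 without control replicate 2. That of Col16a1 was 0.07 with an SE of 0.29, which turned to -0.09 with median centring, to -0.06 with the quantile-normalized values and to -0.31 without control replicate 1.

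Over the 8 other collagens tested, 7 had a higher mean, beside 71.1% of all genes. The median log2 fold change was 0.20, beside 0.15 over all genes. This median was 0.01 without control replicate 1 and 0.40 without control replicate 2. With median centring it was 0.04, with 5 of the 8 higher. The sum over all 27 was 37.9 and 48.7 FPKM in the controls and 49.0 and 53.6 FPKM in Tbx20_OE, the one class whose sums did not overlap between the groups. Its log2 difference was 0.26 with an SE of 0.19, and it was 0.09 with median centring and 0.08 with the quantile-normalized values. The gap of the sums between control replicate 2 and Tbx20_OE replicate 1 was small beside the difference between the controls. Of the 27 collagens below the tested level, 8, namely Col24a1, Col11a1, Col4a3, Col4a4, Col28a1, Col8a2, Col22a1 and Col19a1 were listed higher in both Tbx20_OE libraries and 1, Col7a1, lower, all of them under 0.54 FPKM. Among the genes tested, all above that level, the shares were 28.1% and 4.77%, and none was computed for genes below it.

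The spread between the control hearts was the widest feature of the collagen values. Control replicate 2 exceeded control replicate 1 for 15 of the 17 collagens, or 88.2%, as it did for 39.1% of all genes tested. The ratio of control replicate 2 to control replicate 1 was 3.37 for Col5a3, 2.82 for Col14a1, 2.47 for Col16a1, 2.26 for Col3a1 and 1.99 for Col1a1. For the basement membrane chains it was 1.08 for Col4a1, 1.25 for Col4a2 and 1.05 for Col4a5. The median ratio was 1.85 over fibrillar, 1.08 over basement membrane and 1.54 over other collagens, and 0.882 over all genes. Between the Tbx20_OE libraries the order of the classes was the opposite, with a median ratio of replicate 2 to replicate 1 of 0.992 over fibrillar and 1.41 over basement membrane collagens. Both Tbx20_OE libraries lay between the controls for 8 of the 17 collagens, or 47.1%, against 22.4% of all genes.

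Of the 8 fibroblast markers, Postn, a matrix protein, measured 5.38 and 12.8 FPKM in control replicates 1 and 2 and Dpt, a matrix protein that binds decorin, 60.1 and 96.4 FPKM, whereas the other 6 were lower in control replicate 2. The 8 genes, with Dcn the most abundant, summed to 405.6 and 396.5 FPKM in the controls and 543.8 and 436.8 FPKM in Tbx20_OE, and 7 of the 8 had a higher mean in Tbx20_OE. Their median log2 fold change was 0.34. Among them Ddr2, Lum and Dcn also belong to the processing or receptor lists below. Schwann cell markers summed to 3.01 and 5.27 FPKM in the controls and 4.22 and 3.95 FPKM in Tbx20_OE, and cartilage and valve markers to 2.75 and 2.16 FPKM against 5.11 and 1.57 FPKM. The cardiomyocyte markers, which define the labelled tissue, summed to between 36650 and 41840 FPKM in 3 libraries and 42760 FPKM in Tbx20_OE replicate 1. No marker gene in the table was at 0 in every library. The GC content of the transcripts was also examined. The tested collagens had a median GC content of 56.4% against 50.1% over all genes, and across 10029 genes the deviation of a gene from its mean was correlated with its GC content at a Spearman rho of -0.30 in control replicate 1 and 0.45 in control replicate 2, and of -0.15 and -0.38 in Tbx20_OE replicates 1 and 2 (genes are not independent replicates). With GC-corrected values both Tbx20_OE libraries lay above both controls for 11 of the 17 collagens, against 29.5% of all genes. These were all 3 basement membrane chains, Col5a1 and 7 of the 8 others, and no collagen passed the test.

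The genes that process collagen were examined from a list of 34, of which 26 were tested. None passed the limma test (adjusted p from 0.848 to 0.979), where 0.019% of all genes did. Of the 26, 2 had an unadjusted p under 0.05, beside 1.52% of all genes. The median log2 fold change was 0.03, beside 0.15 over all genes. There were 14 higher and 12 lower means, where 71.1% of all genes had a higher one. With median centring 7 of the 26 had a higher mean, as did 5063 of the 10513 genes. Both Tbx20_OE libraries lay above both controls for 6 genes and below both for 4, beside 28.1% and 4.77% of all genes. These counts were 2 and 6 with median centring, beside 10.3% and 14.1% of all genes. They were 5 and 6 with the quantile-normalized values, beside 12.1% and 12.7%. With values corrected for GC content they were 5 and 2, beside 29.5% and 4.31%. GC content was known for 23 of the 26 genes. Glt25d1, among the 5 above both controls on that scale, had none and kept its uncorrected values.

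The 4 genes below both controls, Serpinh1, P4ha1, Plod3 and Plod1, act inside the cell, as do Glt25d1, Mia3 and Sec31a among the 6 above both controls. Serpinh1, the collagen chaperone of the endoplasmic reticulum also known as Hsp47, measured 122.3 and 122.8 FPKM in the controls and 84.4 and 66.5 FPKM in Tbx20_OE, which gave a log2 fold change of -0.70 with an SE of 0.25. Both controls were nearly equal here, and both overexpressing libraries lay below them. P4ha1, a catalytic subunit of prolyl 4-hydroxylase, whose product stabilises the triple helix, measured 24.4 and 17.0 FPKM in the controls and 16.5 and 11.3 FPKM in Tbx20_OE, which gave a log2 fold change of -0.55 with an SE of 0.30. Plod3, a lysyl hydroxylase, measured 11.2 and 11.3 FPKM in the controls and 9.45 and 8.22 FPKM in Tbx20_OE, which gave a log2 fold change of -0.32 with an SE of 0.21. All 3 kept this sign whichever library was left out, and Serpinh1 lay between -0.87 and -0.53. Bmp1, the protease that trims the procollagen end outside the cell, was lowest in control replicate 1 and highest in control replicate 2 like the abundant fibrillar chains, with 5.39 and 14.3 FPKM in the controls and 8.53 and 6.72 FPKM in Tbx20_OE. Its log2 fold change was -0.20 with an SE of 0.44, and it was -0.83 without control replicate 1 (adjusted p = 0.0489) and 0.42 without control replicate 2.

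Among the genes with higher means, Lum, the fibril-binding proteoglycan lumican, measured 19.9 and 18.0 FPKM in the controls and 32.5 and 32.5 FPKM in Tbx20_OE. Its log2 fold change was 0.75 with an SE of 0.22 (limma adjusted p = 0.848), and the libraries of each group lay close together. Glt25d1, a collagen galactosyltransferase, measured 12.0 and 6.72 FPKM in the controls and 12.6 and 13.7 FPKM in Tbx20_OE, where only control replicate 2 lay well below the rest. Loxl2, which crosslinks collagen, measured 2.95 and 3.07 FPKM in the controls and 3.90 and 4.84 FPKM in Tbx20_OE, and Sec31a, a coat protein of the vesicles that carry procollagen, 13.7 and 10.6 FPKM against 14.4 and 16.9 FPKM. The log2 fold changes of Glt25d1, Loxl2 and Sec31a were 0.50, 0.41 and 0.35. Without control replicate 1 Lum and Glt25d1 passed the test (adjusted p = 0.0433 and 0.0362), in the fit that called 13.6% of all genes. With median centring the groups stayed apart for Lum and Loxl2 but not for Glt25d1 and Sec31a, and they stayed apart for Serpinh1, P4ha1, Plod3 and Plod1, with P4ha2 and Lepre1 also below both controls. With values corrected for GC content they stayed apart for Serpinh1 and P4ha1 but not for Plod3 and Plod1.

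**Figure D4:**
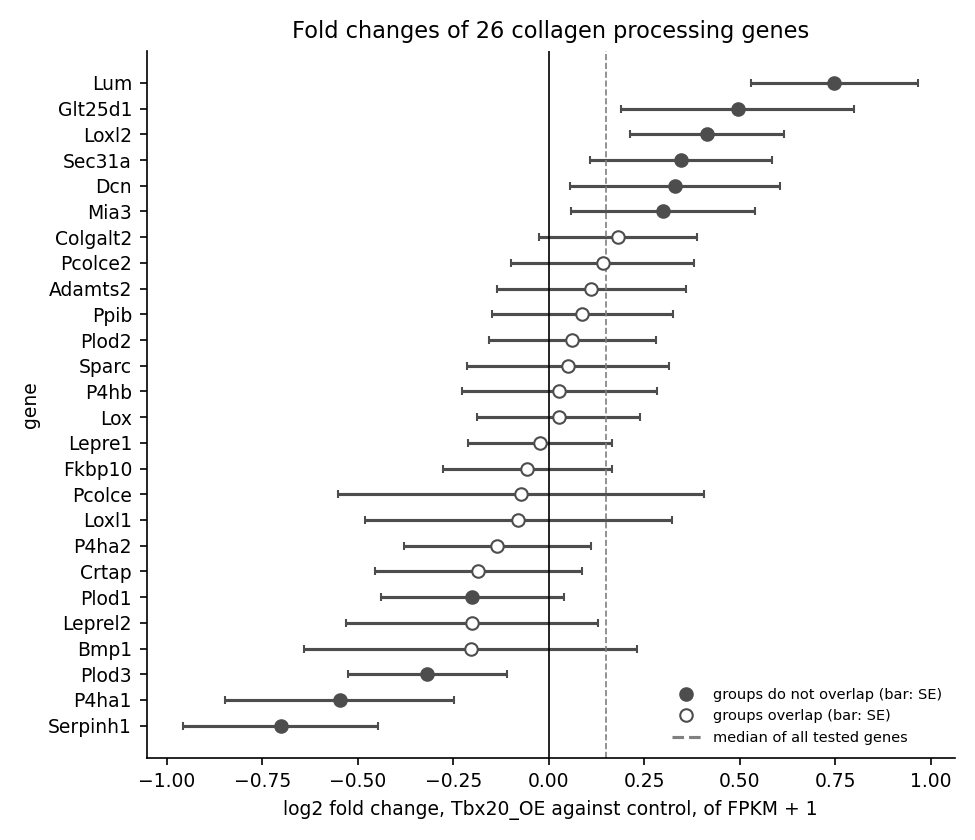
Log2 fold change of FPKM + 1 between Tbx20_OE and control for the 26 tested collagen processing genes, with bars for the SE from limma. Filled points mark genes whose groups do not overlap, 6 above and 4 below 0, with Lum at 0.75 and Serpinh1 at -0.70 at the ends, and the dashed line marks the median of all genes tested, 0.15.

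Collagen receptors, a list of 9 genes of which 5 were tested, all had higher means in Tbx20_OE, with a median log2 fold change of 0.36 and no gene passing the limma test (adjusted p from 0.848 to 0.978). The lowest of these changes, 0.02 for Mrc2, is smaller than the shift of 0.16 between the groups over all genes. Itga1, the integrin chain that binds type IV and type I collagen, measured 2.48 and 0.978 FPKM in the controls and 2.60 and 3.38 FPKM in Tbx20_OE. Ddr2, a receptor tyrosine kinase for fibrillar collagen, measured 3.59 and 2.12 FPKM in the controls and 3.75 and 3.95 FPKM in Tbx20_OE. For these 2 of the 5 both Tbx20_OE libraries lay above both controls, beside 28.1% of all genes, and control replicate 2 was the low library in both. Of the 5 receptors, 4 were lowest in control replicate 2, as were 54.3% of all genes, whereas 2 of the 17 collagens were.

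The authors' deposited table, made with cuffdiff 2.1.1, gave a test for 25 of the 44 collagens. In it 16 were higher and 9 lower in Tbx20_OE, with a median log2 fold change of 0.17 against -0.01 over all genes with a test. By class, the authors' deposited table had 1 fibrillar collagen higher and 7 lower, 5 basement membrane collagens higher and 1 lower, and 10 of the others higher and 1 lower. The medians in the authors' deposited table were -0.26, 0.35 and 0.30 for these classes. Of the 25 collagens 1, Col8a1, had p under 0.05 in the authors' deposited table, against 2.58% of all genes, with 2.84 FPKM in control and 4.83 FPKM in Tbx20_OE, which gave a log2 fold change of 0.77, p = 0.0386 and q = 0.999. It was also the only collagen flagged as up there, as were 0.475% of genes, and no collagen was flagged as down, against 0.887%. Serpinh1, with 168 and 103 FPKM, and P4ha1, with 38.3 and 21.0 FPKM, were flagged as down in the authors' deposited table, with q = 0.999 for each. The condition values of the authors' deposited table are not set beside the library FPKM.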

How the data were processed

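Per the labels' protocols, total RNA of each heart went into standard Illumina libraries. The submitters' processing notes name TopHat2 2.0.13, Cufflinks 2.1.1 and mm10. Which annotation and settings were used is not given in the sources used here. Deposited by the authors were FPKM per gene and library, already scaled to length and mapped fragments, and a quantile-normalized version that served only as an alternative. The authors' deposited comparison table holds, per the file headers, condition FPKM, log2 fold changes, p-values and q-values (cuffdiff 2.1.1, default settings), and selection flags deposited as scores of 0 or 1. Depth is unknown, since low FPKM showed no steps of whole reads, so no counting error can be given.

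The members, classes and lists were chosen with earlier results of these data known, so lists are described by counts and medians and get no test. Values were analysed as log2(FPKM + 1) for the 10513 genes with a mean of at least 1 FPKM, with limma 3.58.1 in R 4.3.3 (moderated test with trend, group as the only term, Benjamini-Hochberg adjustment over all 10513 genes at 0.05). This test was checked on simulated data. Sums over a class are given with SEs from the spread of the log2 values and no p, and ratios of single genes were compared by a two-sided exact permutation test over libraries. The groups come from the genotype labels, and each library is from a heart of its own. All tested collagens were named, with the 4 largest changes each way of the processing list. Where a symbol had several loci, the entry of highest mean stood for it. Promoter sequences were read from the RefSeq table of GRCm38.p6. Alternatives covered the pseudocount, filter, scaling, source table, limma settings, a replicate block and leaving out each library. GC correction in 10 bins and a crossed block were added after seeing the data. Other steps ran in Python 3.11.15 (with numpy 2.4.6, pandas 2.3.3 and scipy 1.17.1), and figures were drawn with matplotlib 3.10.9.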

Additional observations from a re-analysis of the deposited data

How the results depend on the processing

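With 2 hearts a group and unknown depth, differences of the size seen here could not be told from the spread between hearts. The directions of the collagen sum, the fibrillar sum and many single collagens depended on which control was kept. Those of the basement membrane and other collagen sums did not, though their sizes changed. Over all genes the test called 2 genes, 1 with a pseudocount of 0.1, 1 without the filter, 1 with values joined by locus, and 6 to 1433 with a library left out. With a replicate block it called 6 genes, none of them a collagen, and the check gave no sign that the numbers pair the hearts (correlation of deviations -0.45 between libraries of the same number). A crossed block, chosen after seeing the data, called 30 genes and no collagen. Collagens called ranged from 0 to 1 and processing genes from 0 to 3 with a library left out. In these fits a lone library is assumed to vary like those of the other group.

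The median log2 fold change of all genes was 0.056 without the filter, -0.012 with median centring and 0.011 with the quantile-normalized values. With a library left out, it ranged from -0.031 to 0.38 for collagens, -0.52 to 0.29 for fibrillar, 0.08 to 0.56 for basement membrane, 0.01 to 0.40 for other collagens and -0.026 to 0.14 for processing genes. The processing median was -0.064 with a minimum mean of 5 FPKM, -0.13 with centring and -0.10 with the quantile-normalized values. The log2 difference of the collagen sum reversed to -0.035 with centring and -0.048 with the quantile-normalized values, and with a library left out it ran from -0.17 to 0.42. The ranges for the sums were -0.53 to 0.41 for fibrillar, 0.05 to 0.57 for basement membrane and 0.07 to 0.44 for other collagens, and -0.16 to 0.023 for the Col1a1 to Col3a1 ratio. GC correction was not applied to sums.

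With centring and the quantile-normalized values in turn, Col16a1 reversed to -0.089 and -0.063, Col5a1 to -0.075 and -0.072, Col5a2 to -0.050 and -0.029, and Col6a1 to -0.012 and -0.0087. With GC correction Col1a1 reversed to 0.13, Col3a1 to 0.038 and Col5a3 to 0.056. With a library left out, the ranges that crossed 0 were -0.56 to 0.33 for Col14a1, -0.31 to 0.45 for Col16a1, -0.032 to 0.41 for Col18a1, -0.54 to 0.39 for Col1a1, -0.50 to 0.24 for Col1a2, -0.57 to 0.56 for Col3a1, -0.047 to 0.52 for Col4a2, -0.031 to 0.20 for Col5a1, -0.62 to 0.34 for Col5a3, -0.12 to 0.42 for Col6a1 and -0.83 to 0.42 for Bmp1. Among alternatives for single genes, 326 kept direction and side of the threshold, 23 reversed and 5 passed it only with a library left out. Many of the 326 could not have changed direction. The filters, values joined by locus, limma without trend and the blocks returned the same fold change for each gene. The cause of the reversals was not tested.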
